A study of Mus musculus with 60 samples.

Results

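Transcription factor genes of the neural crest and of glial cells were followed across a mouse series built on the CD74-NRG1 gene fusion. They were chosen by symbol, as 9 factors of the crest and of peripheral or central glia: Sox10 (ENSMUSG00000033006), Foxd3 (ENSMUSG00000067261), Pou3f1 (ENSMUSG00000090125), Egr2 (ENSMUSG00000037868), Sox2 (ENSMUSG00000074637), Sox9 (ENSMUSG00000000567), Tfap2a (ENSMUSG00000021359), Tfap2b (ENSMUSG00000025927) and Olig2 (ENSMUSG00000039830). All 9 were found among the 54838 genes of the tissue table and among the 46517 genes of the fibroblast table. The tumours and tissues came from mice in which a Rosa26 allele carries the fusion (FSF.CD74-NRG1) behind a stop cassette, crossed to a Rosa26Flp deleter allele that removes it early in development. The fusion is therefore meant to be made nearly everywhere, and the organs set against the tumours carry it as well, so no transgene-free tissue is in these comparisons.

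The tumours were 7 sarcoma libraries of 6 mice (M00245 gave 2, summed for tests), 3 liver tumours and 2 libraries of the intestine tumour of 1 mouse. The liver tumour of M00249 is titled as liver and marked as tumour in its labels. The organs were 6 muscles, 2 brains, 7 lungs, 6 spleens, 8 livers and 1 kidney of Rosa26CD74-NRG1/Flp mice, often the same animals. The labels state no ages. Mouse embryonic fibroblasts (MEFs) were homozygous for the fusion, heterozygous (fusion over Flp) or negative (Flp on both alleles), from 9 embryos at passages 1 and 3, and 17 of their libraries were used. The library of embryo 8 used here is passage 1 by its group label and description but passage 2 by its title. The other column named for that embryo reads passage 5, matched no sample's labels and was not used, so embryo 8 has no passage 3 value.

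Neural crest cells leave the dorsal neural tube and give rise to peripheral glia, pigment cells, autonomic and sensory neurons and parts of the skull. Foxd3, the AP-2 factors Tfap2a and Tfap2b, Sox9 and Sox10 act early in that lineage, and Sox10 stays on in all peripheral glia. Schwann cell precursors depend on neuregulin 1 acting through Erbb3. Immature Schwann cells express Sox2, promyelinating cells switch on Pou3f1 (Oct6), and myelination needs Egr2 (Krox20), while Olig2 belongs to oligodendrocytes and motor neuron progenitors of the central nervous system.

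Expression was read by sequencing the ends of transcripts (QuantSeq), and levels are given as CPM, the field's usual count scaled to the size of the library. Tissue libraries held 4837478 to 10089600 counts and fibroblast libraries 3107548 to 5000086. Where a gene had no count, its true level could still reach 3 counts, equal to 0.297 to 0.62 CPM in tissues and 0.6 to 0.965 CPM in fibroblasts, for counting error alone. Mitochondrial transcripts took 5.56 to 13.4% of counts in sarcomas, 21.09 to 34.8% in muscle and 16.96 to 19.76% in brain. The 8 skeletal muscle genes summed to 63.5 to 3264 CPM in sarcomas and to 15820 to 29900 CPM in muscle, and the 8 keratinocyte and hair follicle genes to 361 to 6182 CPM in sarcomas and 952.4 to 4203 CPM in muscle. The 9 central neuron genes summed to 6.85 to 22.6 CPM in sarcomas and 4311 to 4737 CPM in brain. In bulk tissue, fewer cells of a type and less RNA per cell cannot be told apart.

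Short promoter stretches are shown as a description of sequence, because the proteins of these genes bind DNA. RefSeq windows of 300 bases around the transcription start (build GRCm38.p6) existed for 6 of the 9 genes, 11 windows in all, while Sox10, Sox9 and Pou3f1 had none. Each 30-base stretch holds a match, in capitals, to the SOX core ACAANG or its other-strand form CNTTGT.
Tfap2b, chr1:19211895-19211924, plus strand: ctctgccagcccCCTTGTgtgattacatct
Sox2, chr3:34649777-34649806, plus strand: ggggggggggatACAAAGgttccccagcgg
Egr2, chr10:67537441-67537470, plus strand: aatggctcccaaACAAGGgccggggaggcg
Olig2, chr16:91225470-91225499, plus strand: ccaggaaaagcaCATTGTtcccgccccccg
A SOX core was present in 41.2% of all 32851 promoter windows, so its presence in these 4 genes describes the sequence and is no sign of a site. An AP-2 palindrome, GCCNNNGGC, stood in a second Egr2 window and in 16.6% of all windows.
Egr2, chr10:67535330-67535359, plus strand: cgggcgtcttGCCCTGGGCtggcttccctg
The Egr2 windows overlap in part, and 3 of them share 1 octamer ATGCAAAT, which 1.74% of all windows held. No window of Foxd3 or Tfap2a matched any of the 5 motifs searched, which also included GCGNGGGCG for EGR (5.55% of all windows) and TGTTTAC for FOX (3.65%), and no window of the 6 genes held either of those.

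In sarcomas, 4 genes stood above every other tissue. Sox10, Foxd3, Pou3f1 and Tfap2b were past the threshold and higher than in muscle, brain, lung, spleen and liver in every one of the 5 contrasts (edgeR quasi-likelihood F test, adjusted p under 0.05), which 2.91% of the 20957 genes tested also did. Sox9 and Olig2 were also higher than in muscle, lung, spleen and liver, which made 6 of the 9 genes above all 4 tissues, against a background of 6.43% of all genes. Each gene passed the filter on low counts in the tissue table. Olig2 did so through brain, at 30.7 and 32.0 CPM. The sarcoma mice had 0.318 to 1.303 CPM of Olig2, 35 counts over all of them, so its place among the 6 rests on few counts.

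**Figure D1:**
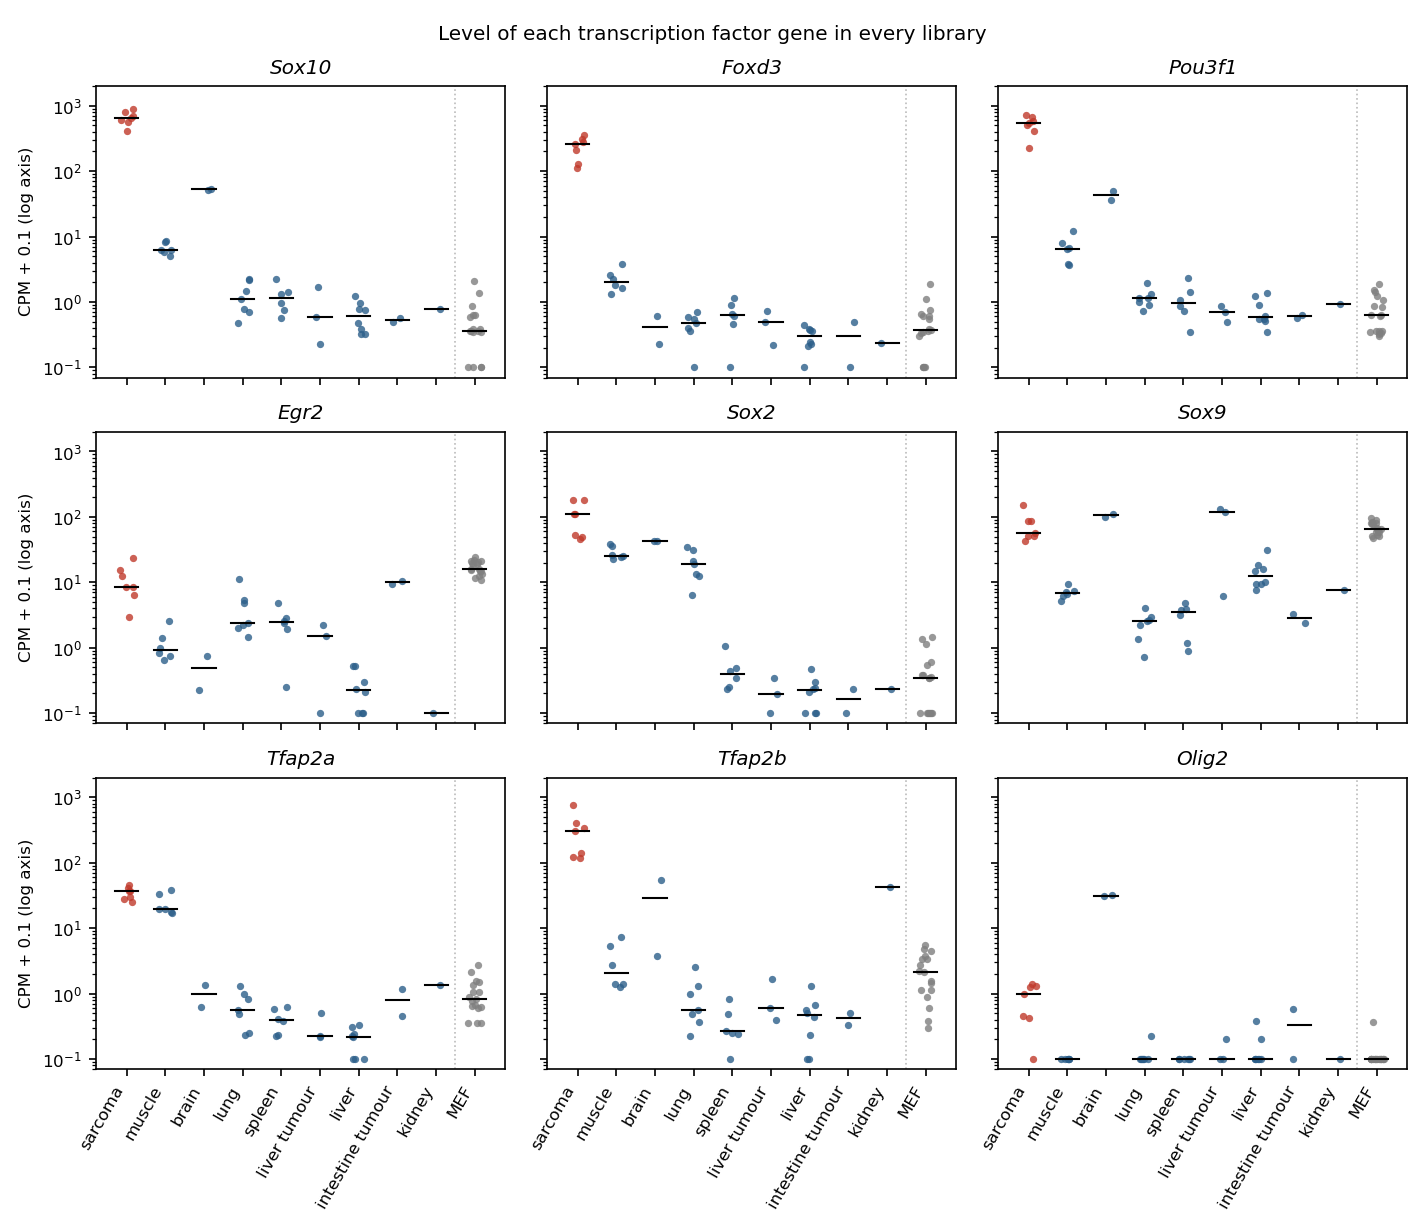
CPM of each gene in every library on a log axis (0.1 added so that libraries at 0 appear at the bottom), with 1 point per library and the median as a line; sarcoma in red, other tissues in blue, MEFs, which come from a separately made table, in grey. Sox10, Foxd3, Pou3f1 and Tfap2b in the 7 sarcoma libraries lie above all other libraries, whereas Sox9 overlaps with brain, liver tumour and MEFs and Olig2 is high only in brain.

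Sox10, the SoxE factor that specifies and maintains peripheral glia, was found at 902, 414, 699, 613, 557, 789 and 655 CPM in the sarcoma libraries M00235, M00236, M00237, M00238, M00245 T1, M00245 T2 and M00248. In brain it stood at 51.5 and 53.3 CPM, in muscle at 4.88, 6.07 and 8.40 CPM (lowest, median, highest), and in the other tissues at 2.12 CPM or less. No sarcoma library overlapped with any library of another tissue, and the brains, which hold oligodendrocytes, came next, followed by muscle. The fitted log2 fold change was 5.65 ± 0.37 against muscle (SE, 6 mice against 6, adjusted p = 8.3e-15) and 3.25 ± 0.52 against brain (6 against 2, adjusted p = 3.6e-06). Against lung, spleen, liver and liver tumour it lay between 8.74 and 8.96. Fold changes are scaled by TMM, which is meant to correct for differences in library composition, and so differ from ratios of plain CPM. Sox10 averaged 661 CPM in sarcoma and 6.53 CPM in muscle, a ratio of 101, while the fitted fold was 50.1. With library totals alone the median of all genes in sarcoma against muscle was 1.09 on the log2 scale, against 0.12 with TMM, and a similar shift applies to liver (1.52 against 0.32).

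Foxd3, a forkhead repressor of early crest and Schwann cell precursors, had 112, 129, 361, 281, 212, 261 and 314 CPM in the same order of sarcoma libraries. It had 1.21, 1.92 and 3.65 CPM in muscle (lowest, median, highest), 0.13 and 0.51 CPM in brain, and 1.03 CPM or less in spleen, lung and liver. No sarcoma overlapped with another tissue, and M00235 and M00236 lay below the other 5 libraries. Log2 fold changes were 5.76 ± 0.38 against muscle and 9.04 ± 0.78 against brain (adjusted p = 1.2e-14 and 7e-12). In brain Foxd3 rested on 5 counts over both libraries.

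Pou3f1, the POU factor of promyelinating Schwann cells that is also made by some cortical neurons, had 223, 416, 506, 546, 578, 712 and 679 CPM in the sarcoma libraries. It had 36.1 and 49.9 CPM in brain and 3.64, 6.44 and 11.9 CPM in muscle (lowest, median, highest). M00235 was the lowest sarcoma, and even that one was above both brains. Log2 fold changes were 5.22 ± 0.34 against muscle and 3.14 ± 0.49 against brain (adjusted p = 1.1e-14 and 2.4e-06).

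Tfap2b, an AP-2 factor of crest and sympathetic cells that is also active in kidney tubules, was the most uneven of the 4. It had 758, 117, 334, 122, 404, 309 and 143 CPM in the sarcoma libraries. Brain gave 3.58 and 54.5 CPM, muscle 1.17 to 7.27 CPM, and lung, spleen and liver 2.46 CPM or less. The sarcoma of M00235 stood apart at the top, and M00236, M00238 and M00248 lay together at the bottom. The log2 fold change was 5.62 ± 0.64 against muscle and 2.97 ± 0.88 against brain (adjusted p = 3.4e-09 and 0.0067). The brains differed widely, and without the brain of M00237 the sarcoma contrast with brain was 2.06 and no longer past the threshold (adjusted p = 0.15). The kidney of M00249 held 42.2 CPM of Tfap2b, above muscle, lung, spleen and liver but below every sarcoma.

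Tfap2a, the other AP-2 factor of the set, which acts in crest and in surface ectoderm, had 30.2, 28.0, 45.6, 24.6, 37.0, 41.04 and 36.6 CPM in the sarcoma libraries and 37.6, 32.9, 17.1, 19.2, 17.7 and 19.6 CPM in the muscles of M00237, M00238, M00245, M00246, M00248 and M00249. The muscle and sarcoma ranges overlapped, and no difference passed the threshold (log2 fold change -0.46 ± 0.3, adjusted p = 0.21). Plain CPM averaged 34.1 in sarcoma and 24.0 in muscle, so the fitted sign rests on the TMM scaling. Under scaling by library totals the sign turned to 0.51, also short of the threshold (adjusted p = 0.16), and with only both groups in the fit it was -0.44 with adjusted p = 0.048. Keratinocyte genes summed to 3390 and 4203 CPM in the muscles of M00237 and M00238, the 2 with most Tfap2a, against 952.4 to 1424 CPM in the other 4 muscles, and their part in the result was not tested. These are also the only muscles of the mice M00235 to M00238, so the higher keratinocyte sum and the set of mice cannot be told apart. In the sarcoma libraries, in the order above, keratinocyte genes summed to 361, 1209, 6182, 731, 2827, 2387 and 379 CPM: M00237 was highest for both, while M00248 had more Tfap2a than M00236 with a lower sum. Outside muscle, Tfap2a was higher in sarcoma than in every tissue tested, by 4.82 ± 0.61 (log2) against brain and 5.71 to 6.93 against lung, spleen, liver and liver tumour.

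Sox2, a SoxB1 factor of immature Schwann cells, neural progenitors and airway and tongue epithelium, had 182, 46.5, 109, 49.2, 111, 184 and 52.4 CPM in the sarcoma libraries. It had 43.3 and 43.2 CPM in brain, 22.7 to 37.8 CPM in muscle and 6.36 to 34.2 CPM in lung, and 0.974 CPM or less in spleen, liver and liver tumour. All sarcomas were above all of these libraries, which 35.1% of genes showed against muscle, 30.4% against brain and 9.39% against lung. The contrast with muscle was 0.79 ± 0.34 (log2, adjusted p = 0.055) and that with brain 0.77 ± 0.5 (adjusted p = 0.24), so neither passed the threshold. The muscle contrast lay close to the threshold and passed it under relative log expression scaling (0.84, adjusted p = 0.042) and under library totals (1.78, adjusted p = 6.1e-05). Against lung the log2 fold change was 2.17 ± 0.34 (adjusted p = 2.1e-06), and against spleen and liver 7.54 and 8.25. Sox2 lies inside the noncoding gene Sox2ot, and how the counting divided their reads is not given in the sources used here.

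Sox9, a SoxE factor of early crest, cartilage, astrocytes, bile ducts and hair follicles, had 85.6, 85.6, 57.7, 43.4, 151, 50.1 and 51.3 CPM in the sarcoma libraries. It was at 99.99 and 111 CPM in brain, 5.06 to 9.26 CPM in muscle, 7.57 to 31.2 CPM in liver and 4.66 CPM or less in lung and spleen. The 2 libraries of the M00245 sarcoma, both from 1 mouse, held 151 CPM in T1, the highest of the 7, and 50.1 CPM in T2. Summed over both, 94.8 CPM, M00245 and all other sarcoma mice were below both brains. Sox9 rose against muscle by 2.39 ± 0.43 (log2, adjusted p = 1.9e-05), against lung by 4.83 ± 0.46 and against liver by 1.1 ± 0.38 (adjusted p = 0.011), the last not past the threshold within mice M00245 to M00249 alone (0.77, adjusted p = 0.12). The difference from brain was -0.97 ± 0.54 and not past the threshold (adjusted p = 0.16), though with sarcoma and brain alone in the fit it was -0.95 (adjusted p = 0.047). The 8 cartilage and bone genes summed to 9.87 to 34.9 CPM in sarcomas and 3.89 to 11.8 CPM in muscle.

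Sox9 also separated the 3 liver tumours. It had 6.01 CPM in M00236, 131 CPM in M00248 and 119 CPM in M00249, against 7.57, 12.5 and 31.2 CPM in livers (lowest, median, highest). The tumours of M00248 and M00249 were above all livers, and that of M00236 was below them. The contrast of liver tumour with liver was 2.3 ± 0.44 (log2, adjusted p = 0.00031), with Egr2 the only other gene of the 9 past the threshold (2.54 ± 0.83, adjusted p = 0.039), against a background of 7.99% of all genes higher and 3.68% lower in liver tumour (11.7% in all). Egr2 had 0, 1.39 and 2.15 CPM in the tumours and at most 0.433 CPM in livers, and its call was lost with the mouse as a block (2.14, adjusted p = 0.19). It was also lost without the tumour of M00248 or M00249 (adjusted p = 0.14 and 0.23) and without any 1 of the livers of M00235, M00236, M00245, M00246 and M00248 (0.057 to 0.067). Bile duct genes summed to 34.4, 995 and 166 CPM in the tumours of M00236, M00248 and M00249, with Spp1 at 31.5 to 992 CPM and Krt19 at 4.68 CPM or less, and their part in the Sox9 result was not tested. Sarcomas had less Sox9 than liver tumours by 1.21 ± 0.47 (log2, adjusted p = 0.031), a call that ended with the mouse as a block (-0.84, adjusted p = 0.26) and under relative log expression scaling (-1.08, adjusted p = 0.054) or library totals (-0.29, adjusted p = 0.63). Among mice M00235 to M00238 alone, where M00236 gave the single liver tumour, the direction turned to 2.56 (adjusted p = 0.0099). Leaving out the liver tumour of M00248 or M00249, or the sarcoma of M00237, M00238 or M00248, also ended the call (-1.13 to -0.72, adjusted p = 0.058 to 0.28).

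Egr2, the zinc finger factor that drives myelination in Schwann cells and is also an immediate early gene in many cells, had 2.87, 6.27, 8.43, 8.30, 15.1, 23.5 and 12.3 CPM in the sarcoma libraries, 0.553 to 2.47 CPM in muscle, 0.127 and 0.640 CPM in brain, 1.35 to 11.1 CPM in lung and 0.154 to 4.66 CPM in spleen. Sarcoma and lung overlapped, as did sarcoma and spleen, while all sarcomas were above all muscles. Egr2 rose against muscle by 2.11 ± 0.64 (log2, adjusted p = 0.0064), against brain by 4.16 ± 1.17 (adjusted p = 0.0043) and against spleen by 1.54 ± 0.62 (adjusted p = 0.038). The call against brain was lost without the brain of M00238 (3.45, adjusted p = 0.092). That against spleen was lost without the sarcoma of M00245 or M00248 (adjusted p = 0.12 and 0.062) and without any 1 of the spleens of M00236, M00245, M00246, M00247 and M00249 (0.056 to 0.082). Against liver tumour Egr2 rose by 2.05 ± 0.83 (adjusted p = 0.037), lost without the liver tumour of M00236 or M00248 or the sarcoma of M00245 or M00248 (adjusted p = 0.052 to 0.16). The contrast with lung was 1.09 ± 0.58 and not past the threshold (adjusted p = 0.13), but passed it without the lung of M00238 (1.53, adjusted p = 0.036). The sarcomas of mice M00235 to M00238 all lay below those of M00245 and M00248. Library names end in 2 digits in the first set of mice and in 1 digit in the second, and the labels do not say whether this marks a batch. Within the first set Egr2 differed from muscle by 1.91 (adjusted p = 0.12) and from lung by -0.31 (adjusted p = 0.8), and within the second by 2.69 (adjusted p = 0.0095) and 2.38 (adjusted p = 0.015). The intestine tumour, at 9.47 and 10.5 CPM, and MEFs, at 10.7 to 24.6 CPM, lay within or close to the sarcoma range.

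Olig2, the basic helix-loop-helix factor of oligodendrocytes, had 0.318, 0.348, 1.20, 0.880, 0, 1.16 and 1.30 CPM in the sarcoma libraries and 30.7 and 32.0 CPM in brain. It had no count in muscle and spleen, at most 0.286 CPM in liver and at most 0.127 CPM in lung. Sarcomas were below both brains, with a log2 fold change of -5.71 ± 0.68 (adjusted p = 1.2e-07). Since Olig2 passed the filter through brain, this contrast is given as a description. Against muscle and spleen, where all libraries were at 0, the sarcoma mean of 0.783 CPM was at least 13.6-fold higher and at least 10.9-fold higher, taking 3 counts over the whole group as the floor. The contrasts with lung, liver and liver tumour passed the threshold (adjusted p = 7e-05, 0.0029 and 0.016), on a few counts per library, and the one with liver tumour did not with the mouse as a block (2.67, adjusted p = 0.13) or without the liver tumour of M00236 or M00249 (adjusted p = 0.067 and 0.064). Within mice M00235 to M00238 alone, those with lung, liver and spleen did not pass either (adjusted p = 0.084, 0.14 and 0.15).

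Counted by comparison, 7 of the 9 genes were higher in sarcoma than in muscle and none lower, against 25.1% of all genes higher and 48.6% past the threshold in either direction. Against brain 6 were higher and 1 lower (17.1% and 22.3% of all genes, 39.5% in all). The lower gene was Olig2, kept in the tests by its level in brain. Against lung 8 were higher and none lower (18.4% and 21.6%), against spleen 9 (25.0% and 22.2%, 47.2% in all) and against liver 9 (36.7% and 26.8%, 63.5% in all). Against liver tumour, 8 were higher and 1 lower (27.9% and 25.5%, 53.4% in all). By plain CPM, all 6 sarcoma mice lay above every library of muscle for 8 genes, all but Tfap2a (35.1% of all genes). They lay above every library of brain for 7 genes (30.4%) and of lung for 8 (9.39%). The same held for 8 genes against spleen (19.5% of all genes), 9 against liver (40.6%) and 8 against liver tumour (38.2%). Above muscle, lung, spleen and liver together stood 7 genes (5.12%), and with brain added 5 genes, Sox10, Foxd3, Pou3f1, Sox2 and Tfap2b (3.47%). Under library totals the balance of all genes was another: 11143 were higher and 2284 lower in sarcoma than in muscle, against 5262 and 4919 with TMM. It was 5003 higher and 3459 lower against brain (3594 and 4677 with TMM), 7487 and 2818 against spleen (5248 and 4653), 13323 and 2530 against liver (7695 and 5616) and 10075 and 2775 against liver tumour (5844 and 5350). With that scaling 8 of the 9 genes were higher than muscle, 9 than liver, and 6 higher and 1 lower than brain. Within mice M00235 to M00238, 6 of the 9 were higher than muscle, where 2533 of all genes were, and 7 higher than lung, where 1853 were. Within mice M00245 to M00249 the counts were 6 against muscle, with 3527 of all genes, and 8 against lung, with 2423. Log2 fold changes of Sox10, Foxd3, Pou3f1 and Tfap2b against muscle passed the threshold in both sets of mice.

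**Figure D2:**
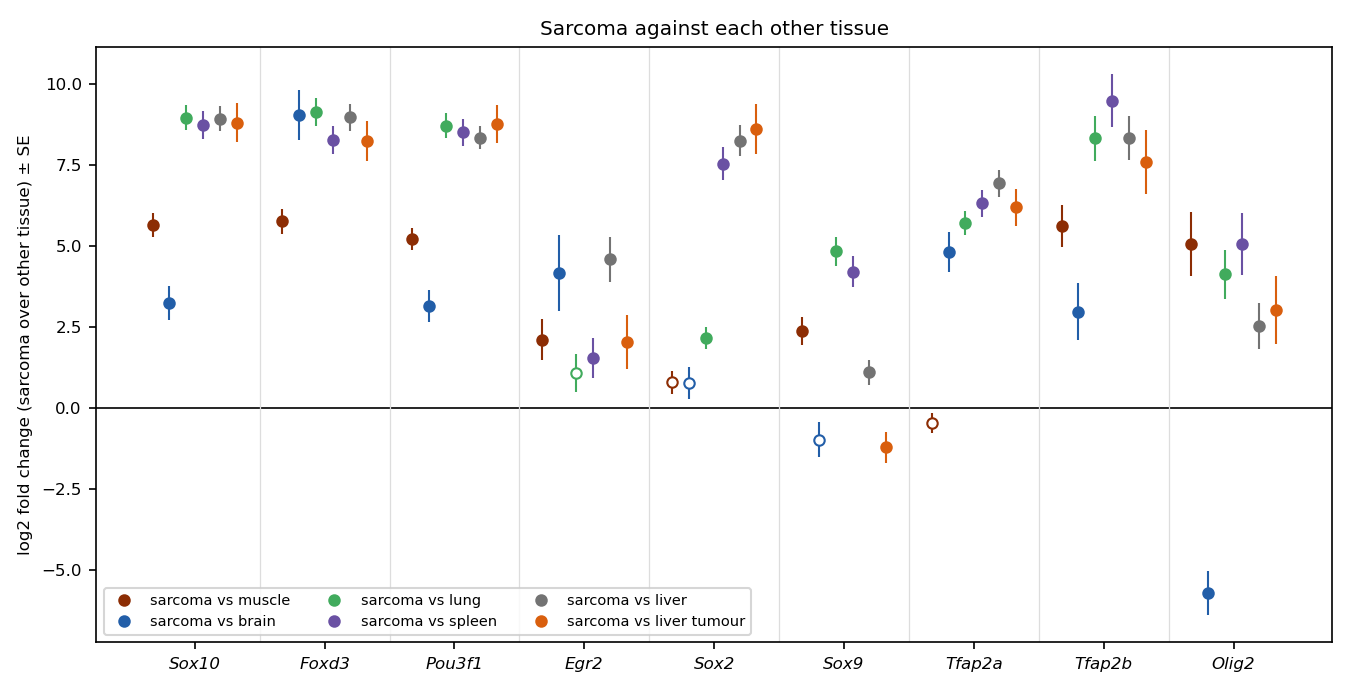
Log2 fold change of sarcoma over each other tissue with its standard error (edgeR, TMM scaling), 9 genes along the axis and 6 comparisons by colour; open symbols did not pass an adjusted p of 0.05. Sox10, Foxd3, Pou3f1 and Tfap2b lie well above 0 in all 6 comparisons, Sox2 and Tfap2a lie near 0 against muscle, and Olig2 lies at -5.71 against brain.

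The sarcomas did not share 1 fixed profile of these genes. From the lowest to the highest library, levels spanned 0.89 log2 units for Tfap2a and 1.12 for Sox10, 1.68 for Pou3f1, 1.69 for Foxd3 and 1.80 for Sox9. The spans were 1.98 for Sox2, 2.69 for Tfap2b and 3.04 for Egr2, so these varied most. M00235 was highest for Sox10 and Tfap2b, with 0.46 and 1.29 above the median on the log2 scale, and lowest for Foxd3, Pou3f1 and Egr2, with -1.22, -1.29 and -1.56. Sox2 and Tfap2b split the libraries the same way: M00236, M00238 and M00248 lay under the median for both, at -1.40 to -1.06 log2 units, and the other 4 were at or above it. Both libraries of M00245 had the most Egr2. With 6 mice and 9 genes these orders were not tested.

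**Figure D3:**
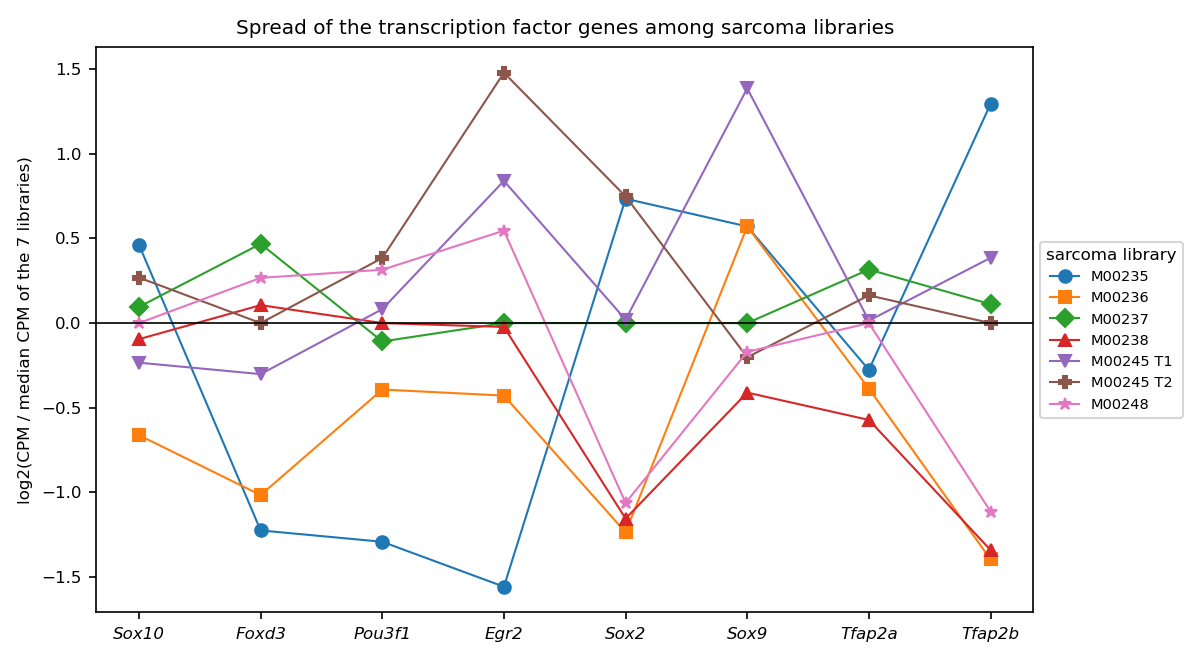
Level of 8 genes in each sarcoma library as log2 of CPM over the median CPM of the 7 libraries (Olig2, at 0 in 1 library, is left out); each line is 1 library. M00235 runs from the top for Tfap2b to the bottom for Foxd3, Pou3f1 and Egr2, and Sox10 and Tfap2a spread least.

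Other genes of the crest programme were read from lists chosen with earlier results of these data known. Their counts are to be set beside the 25.1% of all genes that were higher and 23.5% that were lower in sarcoma than in muscle, and the 17.1% and 22.3% against brain. Counts under library totals have another background: 11143 of the 20957 genes were higher than in muscle and 2284 lower. Of 15 further neural crest specifiers tested, 8 were higher in sarcoma than in muscle and 3 lower, with a median log2 fold change of 0.96 against 0.12 over all genes. Sox5, a SoxD partner of crest Sox factors, rose by 4.11 ± 0.32 (adjusted p = 6.6e-13), with 77.6 to 132 CPM in sarcomas and 1.21 to 5.497 CPM in muscle. Ets1, which acts in cranial crest, rose by 2.56 ± 0.25 (adjusted p = 9.7e-11). Zic1, of the neural plate border, rose by 5.49 ± 0.8, with 2.26 to 15.1 CPM in sarcomas, 0 to 0.259 CPM in muscle and 40.97 and 314 CPM in brain. Pax7, which also marks muscle satellite cells, fell by 3.93 on the log2 scale (adjusted p = 8.4e-05), with at most 0.552 CPM in sarcomas. Pax3, named after its values were seen, rose by 1.32 ± 0.49 (adjusted p = 0.026), with 19.0 to 35.7 CPM in sarcomas and 1.76 to 7.53 CPM in muscle. Against brain, 8 of the 15 were higher and 3 lower.

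Within the Sox family lists, 4 of the 6 further SoxE, SoxB1 and SoxD genes were higher in sarcoma than in muscle and none lower. Counting Sox2, Sox9 and Sox10 too, 6 of 9 were higher, 8 under relative log expression scaling and 9 under library totals. Of all 20957 genes, 5507 and 11143 in turn were higher under these scalings. Sox8, the third SoxE gene, rose by 1.71 ± 0.66 (adjusted p = 0.032) but stayed at 0.754 to 13.4 CPM in sarcomas, against 16.4 and 16.97 CPM in brain. Sox6 rose by 0.96 ± 0.3 (adjusted p = 0.0086); Sox3 had 0.301 to 4.96 CPM in sarcomas and no count in muscle. The AP-2 family went apart: Tfap2c and Tfap2e were lower in sarcoma than in muscle (-2.45 ± 0.6 and -2.16 ± 0.8, adjusted p = 0.00089 and 0.029), and 1 of these 2 calls was lost under library totals. Tfap2c had 0.159 to 19.1 CPM in sarcomas and 7.64 to 51.1 CPM in muscle, while Krt5 had 72.4 to 779 CPM in sarcomas and 388 to 1066 CPM in muscle and Trp63 had 1.59 to 19.4 CPM in sarcomas and 19.0 to 33.2 CPM in muscle. Not all keratinocyte and hair follicle genes ran that way: of 8 tested, 2 were higher in sarcoma than in muscle and 4 lower. Krt1 and Lhx2 rose by 5.38 ± 0.6 and 5.13 ± 0.64 (log2, adjusted p = 2.6e-09 and 2.7e-08). Dsg3 and Krt14 fell by 3.26 and 2.2 (adjusted p = 1.4e-06 and 0.00028). The part of these genes in the AP-2 result was not tested.

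The genes of Schwann cell stages were compared in the same way. Of 16 genes of Schwann cell precursors and immature Schwann cells, 15 were higher in sarcoma than in muscle and none lower, with a median log2 fold change of 4.2. Cdh19, a cadherin of Schwann cell precursors, had 136 to 338 CPM in sarcomas, 2.99 to 4.58 CPM in muscle and 6.27 and 7.09 CPM in brain, and rose by 5.01 ± 0.39 against muscle (adjusted p = 6.4e-13). L1cam rose by 3.44 ± 0.27 and Ngfr, the low-affinity neurotrophin receptor, by 3.25 ± 0.34. Jun, named after its value was seen, was the exception, at -0.42 and not past the threshold (adjusted p = 0.093). Against brain the same list gave 8 higher and 2 lower. The 16 genes summed to 3415 to 6393 CPM in sarcomas and 156.8 to 283.3 CPM in muscle. Both brains, at 5257 and 5570 CPM, lay inside the sarcoma range.

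Erbb3, the receptor through which neuregulin 1 acts on this lineage, had 152 to 352 CPM in sarcomas (6 mice), 14.8 to 21.8 CPM in muscle and 4.05 and 4.23 CPM in brain, and rose against muscle by 3.01 ± 0.24 (log2, adjusted p = 1.2e-12). Nrg1 itself, part of the fusion, had 15.7 to 74.5 CPM in sarcomas and 1.30 to 38.5 CPM in muscle, a difference of -0.4 ± 0.63 that did not pass the threshold (adjusted p = 0.63), on the TMM scale. Both ends of the plain CPM range lay higher in sarcoma, against the fitted sign. Nrg1 was called lower in sarcoma than in liver (log2 fold change -1.39), as were 26.8% of all genes, but not against brain, lung, spleen or liver tumour. The Nrg1 counts do not separate the mouse gene from the transgene.

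Of 15 genes of myelinating Schwann cells, 3 were higher and 6 lower in sarcoma than in muscle, with a median of -0.64, a share of higher genes near that of all genes. Under library totals the split was 5 and 3, where 11143 of all 20957 genes were higher and 2284 lower. Against brain 4 were higher and 7 lower, against lung 6 and 2, against spleen 8 and 0, and against liver 10 and 3. Of all genes, 17.1%, 18.4%, 25.0% and 36.7% were higher in these contrasts, and 22.3%, 21.6%, 22.2% and 26.8% lower. The 15 genes summed to 474.8 to 1746 CPM in sarcomas (6 mice) and 217.1 to 462.2 CPM in muscle. Sums were 517.7 to 667.2 CPM in lung and 3656 to 4097 CPM in brain. Prx, which encodes periaxin of myelinating Schwann cells, fell by 2.38 against muscle on the log2 scale (adjusted p = 6.4e-06). Pmp22 and Cnp, also myelin genes, rose against muscle by 1.78 ± 0.3 and 2.81 ± 0.27. Among repair Schwann cell genes, 4 were higher than in muscle and 1 lower of 9 tested, or 7 and 1 under library totals. Gdnf and Bdnf rose by 1.7 ± 0.62 and 1.29 ± 0.48, Btc fell by 2.69, and Shh, a defining gene of repair cells, was at 0.301 CPM or less in sarcomas.

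Other fates were read from further lists. Of 11 oligodendrocyte genes, 6 were higher in sarcoma than in muscle, but 9 were lower than in brain and 1 higher. Mog had 0.696 to 7.45 CPM in sarcomas and 66.9 and 72.5 CPM in brain, whereas Cspg4, which pericytes and glial progenitors also make, had 152 to 880 CPM in sarcomas and 11.5 and 14.6 CPM in brain. Nkx2-2 had 4.93 to 11.3 CPM in sarcomas and 3.67 and 4.23 CPM in brain. All 9 central neuron genes were lower than in brain. Of 7 autonomic and sensory neuron genes tested, 3 were lower than in muscle and 1 higher, Dbh, with 6.05 to 22.3 CPM in sarcomas and 0 to 0.995 CPM in muscle. Of 5 melanocyte genes tested, Dct and Ednrb rose by 1.26 ± 0.42 and 0.97 ± 0.25, while none was lower, and Tyr was at 0.552 CPM or less. Under library totals 4 of the 5 were higher, as were 11143 of all 20957 genes. Of 8 astrocyte genes, 2 were higher and 5 lower than in muscle (2 and 2 under library totals), and 7 were lower than in brain. Of 8 fibroblast genes 6, and of 6 macrophage genes 5, were higher than in muscle. Against brain, 6 fibroblast genes were higher and 1 lower, and 4 macrophage genes were higher. Macrophage genes ran otherwise in other tissues: 1 was higher and 2 lower than in lung. None was higher than in spleen or liver, and 5 and 3 were lower. Of all genes, 21.6%, 22.2% and 26.8% were lower than in lung, spleen and liver. The macrophage sums were 278.1 to 962.8 CPM in sarcomas, 95.3 to 221.2 CPM in muscle, 2177 to 9434 CPM in lung and 908.6 to 1848 CPM in spleen. The fibroblast genes summed to 7834 to 31880 CPM in sarcomas and 1248 to 1593 CPM in muscle. The fibroblast sums were 447.1 to 924.6 CPM in brain and 677.2 to 1245 CPM in lung. Col1a1 and Col3a1 rose against muscle by 5.38 ± 0.49 and 4.72 ± 0.44 (log2).

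**Figure D4:**
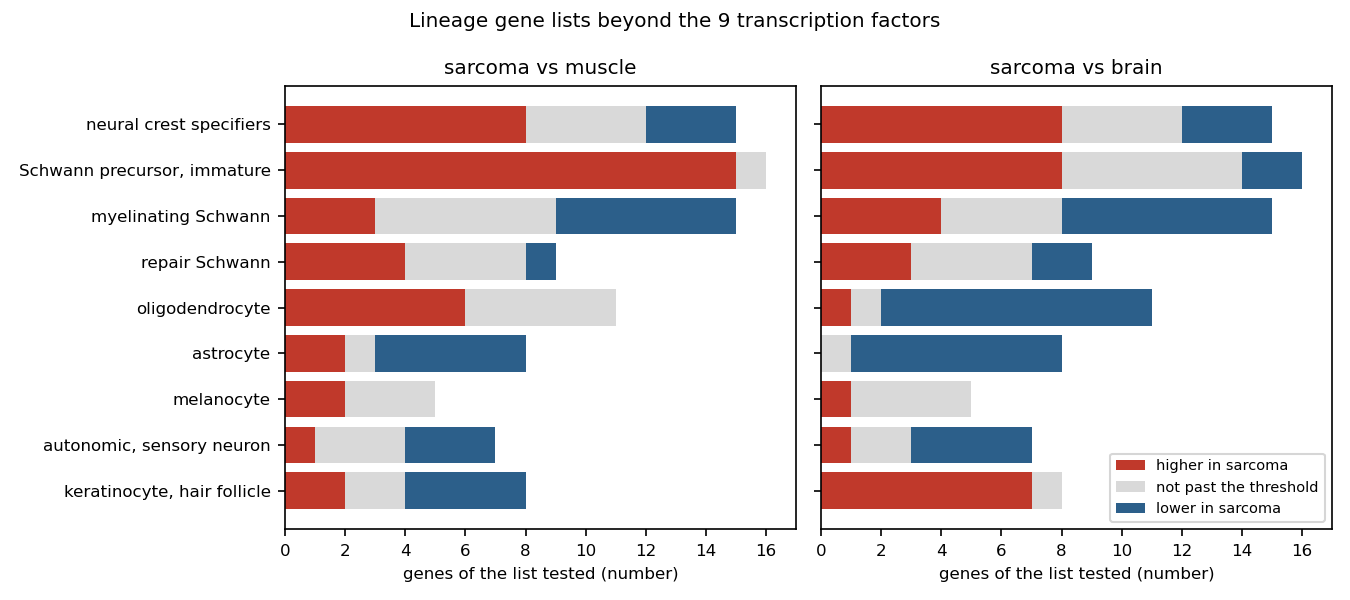
Number of genes of each lineage list that were higher, lower or not past an adjusted p of 0.05 in sarcoma against muscle (left) and against brain (right), leaving out the 9 transcription factors. Precursor and immature Schwann cell genes are higher against muscle in 15 of 16 cases, whereas 9 of 11 oligodendrocyte genes are lower against brain.

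Genes whose levels ran most like those of Sox10 over 40 tissue points (38 libraries of the fit, the kidney and the intestine tumour) were Pou3f1, Plxnb3, Zfp536, Gjc3 and Slc35f1, with Pearson r of log2(CPM + 1) between 0.974 and 0.987 among 14769 genes compared. Pou3f1 named Sox10, Plxnb3, Zfp536 and Gjc3 in turn, with Kcna1 as the fifth. Foxd3 was closest to Col20a1 (0.986), Dbh (0.979), Gfra3 (0.970), Car6 and Dhrs2, and Tfap2b to Prima1 (0.940), Slc35f1, Megf10, Sox10 and Lypd6. These points share tissues and libraries, so the values rest largely on the gap between sarcoma and the rest. By Spearman correlation only 1 of the 5 neighbours of Sox10 and none of those of Foxd3 stayed among the top 5.

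The other genes had neighbours of another kind. Those of Tfap2a were Klk9, Klk7, Cd109, Klhl30 and Krt17, of which the kallikreins and Krt17 are epithelial genes. Sox2 was closest to Gli1 (0.959), Paip2b, Pygo1, Auts2 and Btbd3, and Egr2 to Cbfb (0.902), Ccdc102a, Foxn2, H3f3b and Nras. Sox9 had the lowest values, with Lhx2 first at 0.830, followed by Dlgap1, Adam11, Rnd2 and Scn8a. Among the 9 genes, r over the same points was 0.99 for Sox10 and Pou3f1, 0.93 for Sox10 and Foxd3, 0.92 for Sox10 and Tfap2b, and 0.78 for Sox10 and Tfap2a. It was 0.08 for Egr2 and Sox9 and 0.07 for Tfap2a and Olig2.

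Fibroblasts were measured in a separate table, so their levels are set beside the tissues without a test. In 17 MEF libraries, Col1a1 was at 2635 to 4321 CPM and Col3a1 at 250 to 692 CPM, both collagen genes of fibroblasts. Sox10 was at 1.98 CPM or less, Foxd3 at 1.79 CPM or less, Pou3f1 at 1.76 CPM or less, Sox2 at 1.34 CPM or less, Tfap2a at 2.68 CPM or less and Tfap2b at 0.2 to 5.34 CPM. Olig2 had counts in 1 library only, at 0.268 CPM. Sox9, at 46.8 to 97.5 CPM, and Egr2 were the 2 genes at levels like those of sarcomas. Of the 9 genes, 3 (Egr2, Sox9 and Tfap2b) passed the filter on low counts there.

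The labels of 2 embryos went against their Nrg1 level. Embryo 3, labelled homozygous, had 0.64 and 1.28 CPM of Nrg1, within the range of the negative embryos 5 and 8 (0.49 to 1.57 CPM), whereas the homozygous embryos 7 and 10 had 84.9 to 158 CPM. Embryo 1, labelled negative, had 132 and 147 CPM. Genotype contrasts below therefore compare libraries as labelled. No gene of the 12357 tested passed the threshold between homozygous or heterozygous and negative embryos at passage 1 or 3 in edgeR (unadjusted p under 0.05 in 1258, 417, 302 and 465 genes for homozygous at passages 1 and 3 and heterozygous at passages 1 and 3), and DESeq2 called 1 gene, in the homozygous contrast at passage 1. Without embryo 7, 698 genes passed in that contrast. Sox9 differed by -0.18 ± 0.14 and -0.14 ± 0.15 (log2) in homozygous and by -0.13 ± 0.14 and 0.06 ± 0.15 in heterozygous against negative embryos at passages 1 and 3. None of the 3 genes was called without embryos 1 and 3 either.

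Passage moved Sox9. Sox9 had 46.8 to 65.7 CPM at passage 1 and 67.4 to 97.5 CPM at passage 3, with no overlap. It was higher at passage 3 in 8 of 8 embryos with both libraries. The log2 fold change of passage 3 over passage 1 was 0.53 ± 0.08 (adjusted p = 0.01), against 1.06% of all genes past the threshold in either direction, 0.728% higher and 0.332% lower. The call was lost when embryo 1, 2, 3 or 5 was left out (adjusted p = 0.083, 0.052, 0.057 and 0.067), with log2 fold changes of 0.47 to 0.58, and without embryos 1 and 3 together (0.56, adjusted p = 0.26). Tfap2b was lower at passage 3 in 7 of 8 embryos (-1.41 ± 0.45, adjusted p = 0.14) and so was Egr2 in 7 of 8 (-0.2 ± 0.16, adjusted p = 0.62), neither past the threshold.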

How the data were processed

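Libraries of 42 tissue samples and 17 MEF samples were made from RNA of cryosections and cultured cells with the Lexogen QuantSeq kit, which reads transcript ends, per the labels' protocols. The values used are expected counts per gene as deposited by the authors; 8.35% of tissue values and 6.57% of MEF values were not whole and were rounded. The aligner, the genome build and how overlapping genes were counted were not stated. Among MEF columns, 1 column of values, named for embryo 8, matched no sample and was not used. CPM divided each count by the library's total.

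Counts were tested in R 4.3.3 with edgeR 4.0.16 (TMM scaling, filterByExpr with a minimum count of 10, quasi-likelihood F test, Benjamini-Hochberg adjusted p over all genes, threshold 0.05), in 1 fit of 38 tissue libraries and 1 fit of 17 MEF libraries. The SE is the size of the log2 fold change over the root of F. The tables were made separately, so MEF and tissue levels have no test between them. Scripts were tested on simulated data. DESeq2 1.42.0, other scalings, filters, sample sets and a mouse or embryo block were tried as alternatives. Several tissues came from the same mouse, by the labels: 2 to 6 mice were shared with sarcoma, and same-mouse deviations from group means correlated at -0.12 to 0.37 over 12427 genes. The 9 genes and all lists were chosen with earlier results of these data known. Named genes were the 9, Nrg1, Erbb3, up to 4 genes per list with the smallest adjusted p against muscle, the 5 closest correlates of each, and defining markers of other cell types. Libraries of each group differed by more than counting noise (smallest chi-square per degree of freedom 11.71 in tissues and 2.99 in MEFs). P-values measure the spread between mice or embryos, and for libraries of 1 embryo at both passages, between cultures. That spread is pooled over all groups of a fit, so p-values against the 2 brains rest largely on spread within other groups. Tissues of 1 mouse, and both passages of 1 embryo, entered the main fits as independent. Some genes of the lists are not reported here.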

Additional observations from a re-analysis of the deposited data

Results flagged for a closer look

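In 26 groups of 4 to 10 samples with a mean of at least 1 CPM, a sample far from the others was looked for, which chance alone gives in about 1 of 20 groups, and 3 were found. Tfap2b in the sarcoma of M00235 stood at 758 CPM, with the next sarcoma at 351 CPM. Egr2 in the lung of M00238 stood at 11.1 CPM, with the next lung at 5.28 CPM. Sox9 in the liver of M00247 stood at 31.2 CPM, with the next liver at 18.3 CPM, and this liver also had the highest sum of bile duct genes among livers, 131 CPM, whose part in the value was not tested. Outside the tested groups, the 1 kidney held 42.2 CPM of Tfap2b, against at most 7.27 CPM in muscle, lung, spleen and liver.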

How the results depend on the processing

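Of 1339 alternative values of the log2 fold changes of the 9 genes, 1265 kept direction and side of the threshold, 55 lost the call, 14 gained one and 5 changed sign. The sign changes were Tfap2a against muscle under library totals (0.51) and, in mice M00235 to M00238 alone, Sox9 and Egr2 in liver tumour against liver (-1.17 and -4.29), Sox9 against liver tumour (2.56) and Egr2 against lung (-0.31). The cause was not tested. Counts of the 9 genes past the threshold moved for liver tumour against liver, where 2 became 1 without a filter, with only both groups fitted, with the mouse as a replicate block or without the liver tumour of M00249, to 0 in mice M00235 to M00238, and to 1 to 2 with 1 library left out. For passage, the count of 1 became 0 without embryos 1 and 3 and 0 to 1 with 1 embryo left out.

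Counts over all genes moved by over 1.5 times in these cases. Between passages (131 genes) DESeq2 gave 389, no filter 411, the 5 CPM filter 198, the embryo as a replicate block 295, leaving out embryos 1 and 3 gave 0, and leaving out 1 embryo gave 0 to 549. Homozygous against negative at passage 1 (0 genes) gave 1 with DESeq2, 38 with no filter, 2 without embryos 1 and 3, and 0 to 698 with 1 embryo left out. At passage 3 it gave 1 without embryos 1 and 3. Heterozygous against negative gave 2 and 1 without embryos 1 and 3 at passages 1 and 3, and 0 to 1 at passage 1 with 1 embryo left out. Liver tumour against liver (2445) gave 1407 with only both groups fitted, 868 in mice M00235 to M00238 and 1473 to 2950 with 1 library left out. Sarcoma above 4 tissues (1348) gave 2311 under library totals, 419 in mice M00235 to M00238 and 810 in mice M00245 to M00249. In these 2 sets of mice, which hold fewer samples, sarcoma gave 7307 and 7436 genes against liver tumour (11194), 4967 and 5192 against lung (8374) and 5902 and 6781 against muscle (10181). Against spleen the first set gave 3481 (9901). Against brain (8271), leaving out 1 library gave 5307 to 8093.

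The mouse block changed 3 calls of the 9 genes, all involving liver tumour and given with the results, and no other. With 2 brains, 3 liver tumours and few counts of Olig2 and Egr2, differences there have wide errors, and counts near 0 cannot tell absence from a level under 3 counts. Of the 5 closest correlates, Spearman correlation kept 0 to 2 per gene and a pseudocount of 0.5 kept 3 to 5.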
